A study of Homo sapiens with 6 samples.

Results

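The genes described here are 44 genes of the G1/S transition and of DNA replication, taken by name from a fixed list and followed in human prostate cancer cell lines that are sensitive or resistant to castration. Castration here means withdrawal of androgen. All 44 names were found, each as 1 entry, among 42887 gene symbols, and all 44 passed the filter on low levels (mean scaled FPKM of 1 or more) that left 16231 genes for testing. FPKM is the read count of a gene scaled by gene length and library total, and scaled FPKM is that value divided by 1 factor per library. The rule that picks them uses their names alone.

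RNA was measured in 6 lines with 1 library each. The sensitive lines were LnCaP and LAPC4, kept in RPMI with 10% FBS, and VCaP, kept in DMEM with 10% FBS. Their resistant partners LnCaP-abl, VCaP-CR and LAPC4-CR were all kept in RPMI with charcoal-stripped FBS at 10%, a serum depleted of steroids, plus B27 at 1X, and no line had another treatment. The change of serum therefore came with the change of state in all 3 pairs, and in the VCaP pair the base medium changed as well, so that state and medium cannot be told apart. How the resistant lines were derived, and whether each is a clone, is not given in the sources used here.

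A cell that leaves G1 makes cyclin E and frees E2F transcription factors from the retinoblastoma protein, and E2F then drives transcription of the genes for DNA synthesis. CDC6 and CDT1 load the MCM2 to MCM7 ring on origins, MCM10 and the GINS complex help turn the ring into a moving helicase, and primase with DNA polymerase alpha starts the new strands. The clamp PCNA, set on DNA by the RFC complex, holds polymerases delta and epsilon on the template, while ribonucleotide reductase, TYMS and TK1 supply deoxynucleotides. In prostate cancer cells androgen is a growth signal, and transcripts of these genes are widely used as a sign of proliferation. In RNA from a whole culture, fewer cells in S phase and less RNA per cell cannot be told apart.

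The promoters of several members carry the letters of an E2F site, and the stretches below show the site letters where E2F could bind in genes whose levels are described further on. They come from RefSeq on the build GRCh38.p14, are written 5′ to 3′ along the gene, and end before the first transcribed base. Capitals mark the E2F letters, which are TTTCCCGC, TTTCGCGC, TTTGCCGC and TTTGGCGC or the same letters on the other strand. E2F1 (chr20:33686405-33686545, minus strand) and E2F2 (chr1:23531234-23531393, minus strand) encode E2F factors themselves. MCM6 (chr2:135876444-135876603, minus strand) encodes a subunit of the helicase ring, PCNA (chr20:5126627-5126782, minus strand) the clamp, and POLA1 (chrX:24693758-24693917, plus strand) the catalytic subunit of polymerase alpha.
E2F1: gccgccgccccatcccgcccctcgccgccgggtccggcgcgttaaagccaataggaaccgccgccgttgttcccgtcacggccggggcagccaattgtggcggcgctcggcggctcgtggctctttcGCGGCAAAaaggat
E2F2: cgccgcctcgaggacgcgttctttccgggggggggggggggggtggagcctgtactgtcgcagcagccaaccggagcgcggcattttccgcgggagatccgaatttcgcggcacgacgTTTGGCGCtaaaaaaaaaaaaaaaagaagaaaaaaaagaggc
MCM6: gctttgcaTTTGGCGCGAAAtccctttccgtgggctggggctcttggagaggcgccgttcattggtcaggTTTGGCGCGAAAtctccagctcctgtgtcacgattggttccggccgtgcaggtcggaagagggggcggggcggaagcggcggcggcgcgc
PCNA: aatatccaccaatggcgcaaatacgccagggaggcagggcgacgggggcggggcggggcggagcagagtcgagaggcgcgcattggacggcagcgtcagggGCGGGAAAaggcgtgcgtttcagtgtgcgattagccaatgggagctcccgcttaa
POLA1: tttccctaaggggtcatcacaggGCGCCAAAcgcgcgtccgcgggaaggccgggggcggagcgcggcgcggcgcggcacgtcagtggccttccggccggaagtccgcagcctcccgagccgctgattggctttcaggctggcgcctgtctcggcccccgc
In MCM6 each of the 2 capital runs holds TTTGGCGC on the gene's strand and TTTCGCGC on the other strand, overlapping. In E2F1 a further TTTGGCGC on the gene's strand begins at the last base shown.

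A window of 300 bases, from 250 before to 50 after the start, was in the RefSeq table for 37 of the 44 members. MCM4, MCM5, GINS4, POLD3, CCNE2, CCND1 and RPA2 had no entry there. The E2F letters were present for 22 of the 37 members (59.5%), against 3.99% of all 27305 genes in the table. The members with a match included MCM2, MCM3, MCM6 and MCM7, all of the GINS genes in the table (GINS1, GINS2 and GINS3), CDC6, CDT1, PCNA, RFC3, TYMS, DTL and UHRF1. The letters CCAAT were found in 54.1% of the members with a window and in 39.7% of all genes. The letters of the cell cycle homology region, TTTGAA or TTCGAA, which mark many genes of G2 and mitosis, were found in 5.41% of the members and 19.5% of all genes, and in 76.5% of the listed G2 and mitosis genes with a window. A match is a description of letters, and no match says only that these letters are not in the window. In the LAPC4 pair the median change, on the log2 scale described next, was 0.42 for the 22 members with E2F letters and 0.26 for the 15 without. In the LnCaP pair these medians were -0.44 and -0.35, and in the VCaP pair -0.21 and -0.26. Members with and without the letters thus had medians of the same sign in each pair.

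The 44 members were on balance lower in the LnCaP and VCaP resistant libraries than in their parents and higher in the LAPC4 one. Changes are in log2(scaled FPKM + 1), resistant over sensitive, a scale that understates changes of genes at low levels, and with 1 library on each side it has no replicate check. In the LnCaP pair 35 of 44 members were lower and 9 higher, against 50.9% and 49.1% of all tested genes, and the median change was -0.34 against -0.01 for all tested genes. In the VCaP pair 36 were lower and 8 higher, against 51.4% and 48.5% of all genes, with a median of -0.26 against -0.01. In the LAPC4 pair 35 were higher and 9 lower, against 48.3% and 51.7% of all genes, with a median of 0.37 against -0.02. Among protein-coding genes alone, the class of 43 of the 44 members, the medians over all genes were 0.08, -0.01 and 0.02. The direction of the members' median was the same in all 27 values from alternative settings, and with factors taken from protein-coding genes the LnCaP median was -0.44, where the scale of that pair moved by 0.11.

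Counting error alone did not cover most of these differences. Exact 95% Poisson intervals of the counts, carried to the scaled values, were apart for 25 lower and 3 higher members in the LnCaP pair, where 21.6% and 26.3% of all tested genes were apart. The VCaP pair had 24 lower and 2 higher members apart, beside 17.4% and 18.2% of all genes. In the LAPC4 pair 28 higher and 7 lower members were apart, beside 27% and 26.6% of all genes. These intervals cover counting error only, and the reads are not independent molecules.

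**Figure D1:**
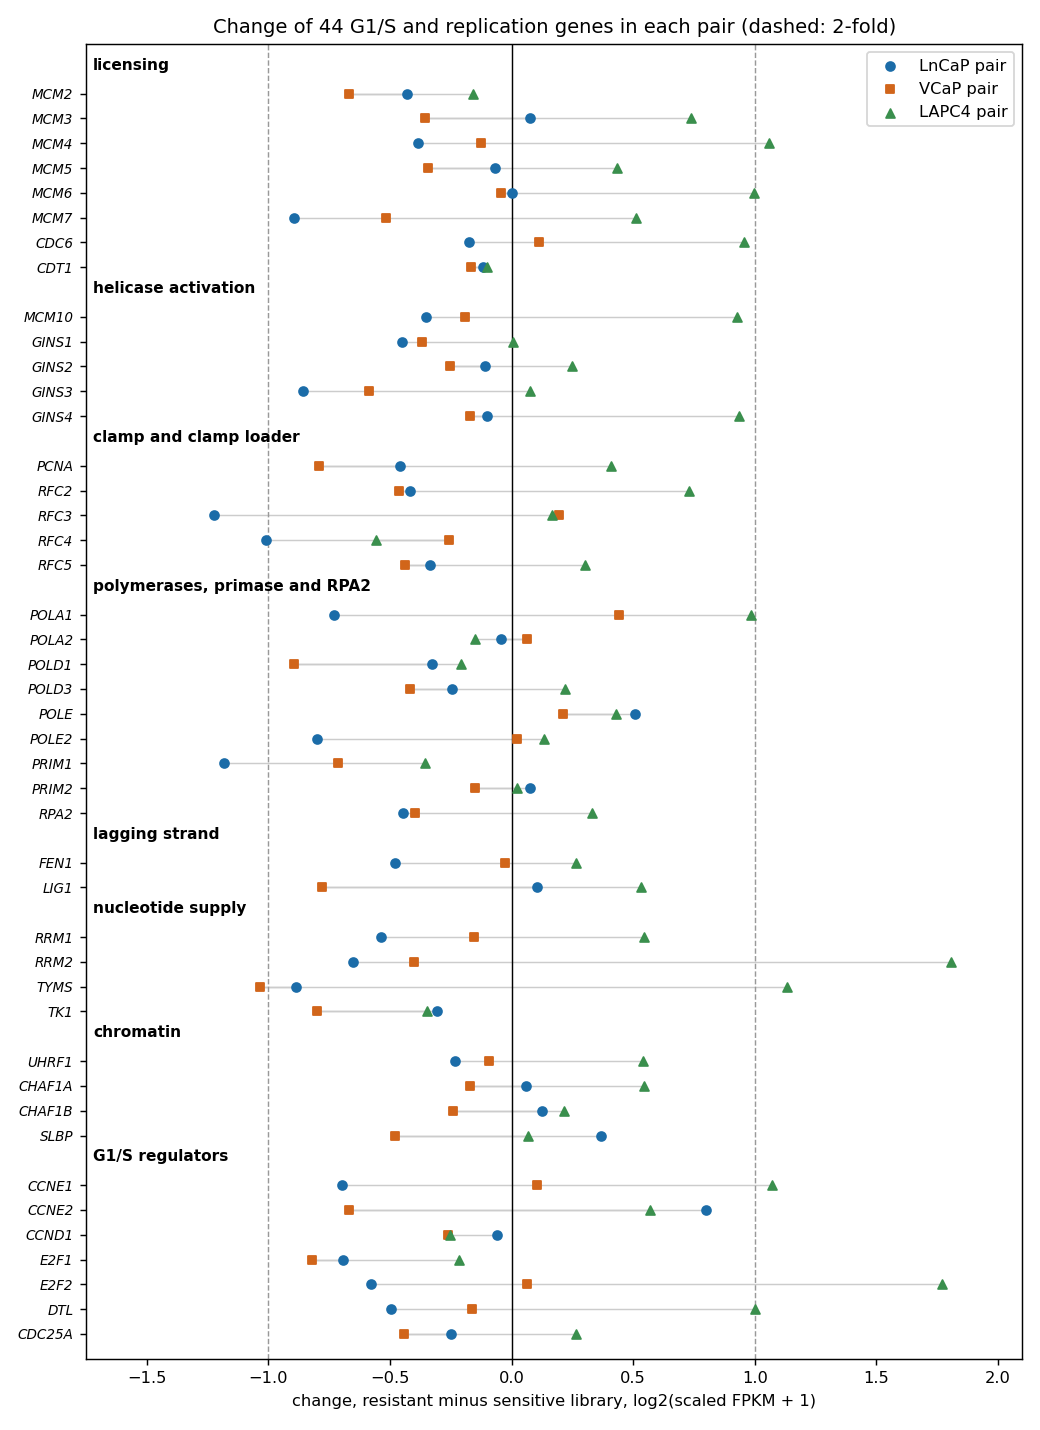
Change of each of the 44 members in the 3 pairs, resistant minus sensitive library, in log2(scaled FPKM + 1), grouped by role; circles are the LnCaP pair, squares the VCaP pair and triangles the LAPC4 pair, and dashed lines mark 2-fold. Most triangles lie to the right of 0 (35 of 44), and most circles (35) and squares (36) to the left.

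The most frequent pattern was lower in the LnCaP and VCaP pairs and higher in the LAPC4 pair. It held for 20 members (45.5%), against 11.4% of all tested genes. These were MCM4, MCM5, MCM7, MCM10, GINS1, GINS2, GINS3, GINS4, PCNA, RFC2, RFC5, POLD3, RPA2, RRM1, RRM2, TYMS, FEN1, UHRF1, DTL and CDC25A. Another 8 members were lower in all 3 pairs (16.7% of all genes were), and 1 member, POLE, was higher in all 3 (15.1% of all genes). A further 8 members were lower in the VCaP pair only (MCM3, MCM6, PRIM2, LIG1, CCNE2, CHAF1A, CHAF1B and SLBP), with MCM6 at a change of 0.00 in the LnCaP pair. The last 7 were lower in the LnCaP pair and higher in the VCaP pair (CDC6, RFC3, POLA1, POLE2, CCNE1, E2F2 and POLA2). Of these, POLA2 was lower in the LAPC4 pair too, and only POLA1 had counting intervals apart in the VCaP pair. All these patterns count signs alone, whatever the size of the change, and many of the changes lay within counting error.

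Across the 3 pairs no member passed the test of resistant against sensitive libraries. The edgeR quasi-likelihood test, with the parental line as a block, called 0 of 44 members and 0% of the 16231 genes in either direction, and limma also called 0. DESeq2 called 0 members, and 83 higher and 55 lower genes over the whole table. At an unadjusted edgeR p under 0.05, 1 member was lower (PRIM1) and 0 were higher, beside 3.38% and 4.49% of all genes. The smallest adjusted p of a member in edgeR was 0.597, for PRIM1.

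PRIM1 encodes the catalytic subunit of primase, which lays down the RNA primers of new strands. The level of PRIM1 in scaled FPKM was 14.1 for LnCaP against 5.64 for LnCaP-abl, 22.3 for VCaP against 13.2 for VCaP-CR, and 17.1 for LAPC4 against 13.1 for LAPC4-CR. All 3 resistant values lay below all 3 sensitive ones. The mean change was -0.75 ± 0.41 (SD, n = 3 pairs), and the edgeR log2 change was -0.80 (SE 0.29, unadjusted p 0.0286, adjusted p 0.597). The entry (ENSG00000198056, chromosome 12, 55411639 to 55432424 in the coordinates of the tables, hg18 per the submitters' processing notes) overlaps HSD17B6 and NACA, and the labels and notes do not say whether the counting used strand.

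E2F1, an activating factor of the E2F family, was at 15.7 scaled FPKM in LnCaP and 9.29 in LnCaP-abl, at 19.3 and 10.5 in the VCaP pair, and at 18.1 and 15.4 in the LAPC4 pair. TK1, the salvage kinase that phosphorylates thymidine, was at 48.2 and 38.8, at 48.5 and 27.4, and at 53.3 and 41.6 in the same order. MCM2, a subunit of the helicase ring, was at 38.5 and 28.4, at 36.7 and 22.7, and at 31.5 and 28.1. For each of these 3 genes, as for PRIM1, the groups of 3 did not overlap; 3.22% of all tested genes were separated in this direction, and no member was separated in the other direction (3.44% of all genes). The edgeR log2 change was -0.61 for E2F1 (SE 0.26, adjusted p 0.633), -0.48 for TK1 (SE 0.24, adjusted p 0.662) and -0.42 for MCM2 (SE 0.24, adjusted p 0.701).

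RFC4, a subunit of the clamp loader, was at 7.10 scaled FPKM in LnCaP and 3.02 in LnCaP-abl, at 5.05 and 4.06 in the VCaP pair, and at 9.77 and 6.32 in the LAPC4 pair. RFC4 was lower in each pair, but the groups overlapped, since LAPC4-CR was above VCaP. Its edgeR log2 change was -0.71 (SE 0.31, adjusted p 0.633), and its entry overlaps EIF4A2. POLE, the catalytic subunit of polymerase epsilon, was the member higher in each pair, at 2.14 and 3.47, at 3.96 and 4.74, and at 2.74 and 4.04 scaled FPKM. The edgeR log2 change of POLE was 0.52 (SE 0.24, adjusted p 0.647), and VCaP was above LnCaP-abl. The deposited POLE entry (chromosome 12, 131710418 to 131923460) spans the entries of GOLGA3, PXMP2, ANKLE2, PGAM5 and RP13-672B3.2 and has the greatest length of any member, 16928 bases. Its value may therefore hold reads of these genes, and with the trend on gene length removed its change in the VCaP pair was -0.05. The other members lower in all pairs were CDT1, POLD1 and CCND1. CCND1, which encodes cyclin D1, differed least among them in the LnCaP pair, at 49.2 and 47.1.

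**Figure D2:**
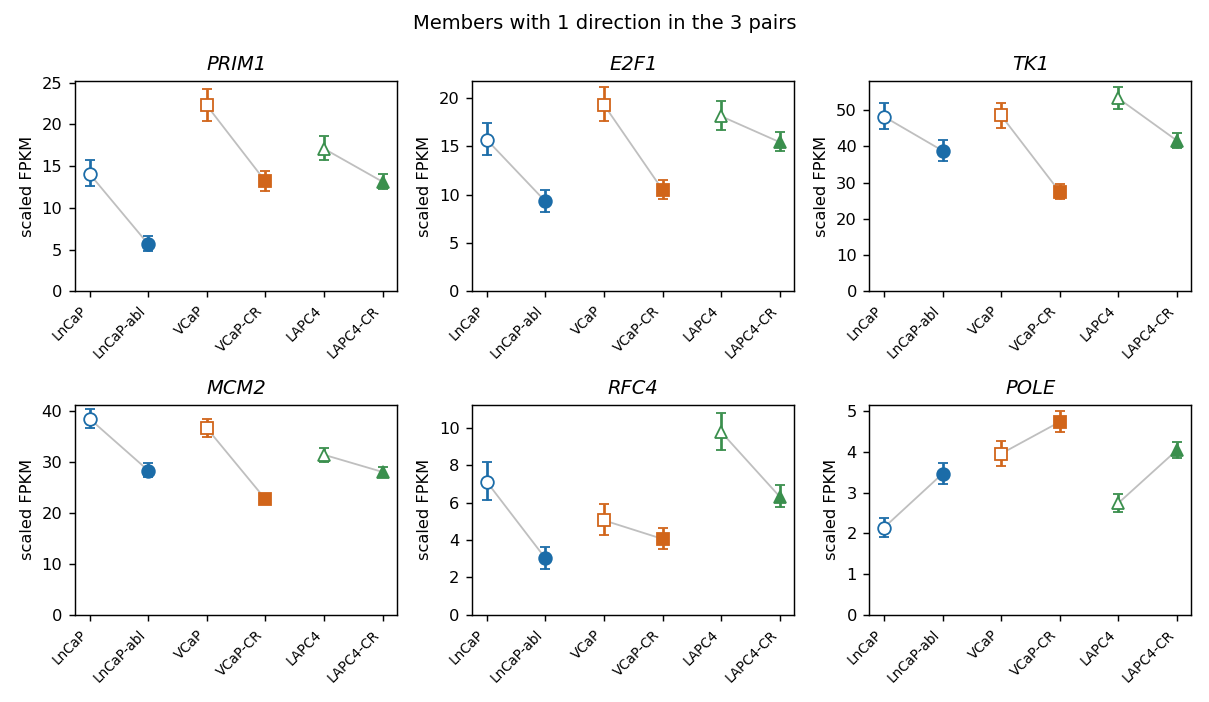
Scaled FPKM in the 6 libraries of PRIM1, E2F1, TK1, MCM2, RFC4 and POLE; open symbols are sensitive and filled symbols resistant lines, bars are exact 95% Poisson intervals of the count and lines join a pair. In PRIM1, E2F1, TK1 and MCM2 every filled symbol lies below every open one, and POLE is higher in each resistant line.

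The 2 largest changes of any member were those of RRM2 (1.80) and E2F2 (1.77) in LAPC4-CR, followed by those of RFC3 and PRIM1 in LnCaP-abl. RRM2 encodes the small subunit of ribonucleotide reductase, the enzyme that turns ribonucleotides into deoxyribonucleotides. RRM2 had a scaled FPKM of 15.5 and 9.49 for LnCaP and LnCaP-abl, 10.1 and 7.38 for VCaP and VCaP-CR, and 5.59 and 22.0 for LAPC4 and LAPC4-CR. LAPC4 had the lowest and LAPC4-CR the highest level of the 6 lines. The level in LAPC4-CR was 3.94-fold that in LAPC4, while the changes in the other pairs were -0.65 and -0.40.

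TYMS, thymidylate synthase, makes the thymidine nucleotide of DNA. TYMS was at 44.4 and 23.6 scaled FPKM in the LnCaP pair, parent first, at 48.0 and 22.9 in the VCaP pair, and at 12.6 and 28.8 in the LAPC4 one. TYMS passed 2-fold in opposite directions, with a change of 1.13 for LAPC4-CR and of -1.03 for VCaP-CR. The LnCaP-abl change was -0.89. The VCaP-CR change was inside 2-fold at 3 other settings. It was -0.96 with FPKM as deposited, -0.90 with the trend on gene length removed and -0.92 at a pseudocount of 5. The 3 resistant lines lay close together, between 22.9 and 28.8, while the sensitive ones ranged from 12.6 to 48.0. Its entry overlaps ENOSF1 and C18orf56. E2F2, a second activating E2F factor, was at 1.74 and 0.837 in the LnCaP pair, at 1.37 and 1.47 in the VCaP pair, and at 1.55 and 7.69 in the LAPC4 pair. LAPC4-CR was highest, at 4.97-fold its parent (1044 and 109 counts), and LnCaP-abl was lowest, with LnCaP 2.08-fold above it and counting intervals apart.

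At least 2-fold higher in LAPC4-CR were 6 members, against 5.22% of all genes: RRM2, E2F2, TYMS, CCNE1 (change 1.07), MCM4 (1.06) and DTL (1.00). No member was 2-fold lower there (5.28% of all genes were). DTL, which directs the ubiquitin ligase that destroys CDT1, lay just inside the threshold on this scale, and MCM6 (0.996) and POLA1 (0.98) just outside. As a plain ratio of scaled FPKM, with nothing added, 10 members were at least 2-fold higher (9.61% of all genes) and none lower (10.2%), since POLA1 (3.14-fold), GINS4 (2.16), MCM10 (2.07) and MCM6 (2.05) then passed. MCM4, a helicase subunit, was at 26.3 and 19.9 scaled FPKM in the LnCaP pair, at 47.4 and 43.4 in the VCaP pair, and at 16.9 and 36.3 in the LAPC4 pair. How many pass depends on the setting, with 10 at a pseudocount of 0.25, 1 at 5 and 11 from the FPKM as deposited.

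In the LnCaP pair 3 members were at least 2-fold lower (6.19% of all genes were) and none 2-fold higher (6.23%). These were RFC3, PRIM1 and RFC4, and with a pseudocount of 5 none passed. As a plain ratio 6 were 2-fold lower (12.3% of all genes) and none higher (10.2%), with GINS3, POLE2 and E2F2 added. RFC3, a clamp loader subunit, was at 15.0 scaled FPKM in LnCaP and 5.85 in LnCaP-abl, at 12.9 and 15.0 in the VCaP pair, and at 13.6 and 15.4 in the LAPC4 pair. LnCaP-abl alone was low (change -1.23), and the other 5 lines lay between 12.9 and 15.4. The VCaP pair had the fewest large changes, with only TYMS 2-fold lower, 1 member (2.03% of all genes), and none 2-fold higher (2.37%); by the plain ratio the same counts stood beside 5.1% and 5.57% of all genes. Its next lowest changes were those of POLD1 (-0.90), the catalytic subunit of polymerase delta, at 14.5 and 7.34, and of E2F1 (-0.82). POLD1 was at 9.77 and 7.58 in the LnCaP pair and at 12.4 and 10.6 in the LAPC4 pair.

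POLA1 was at 3.89 scaled FPKM in LnCaP and 1.95 in LnCaP-abl, at 2.79 and 4.15 in the VCaP pair, and at 0.843 and 2.65 in the LAPC4 pair. Its change was -0.73 in the first pair and 0.44 and 0.98 in the others. CCNE2, the second cyclin E gene, was at 4.39 and 8.38, at 12.3 and 7.37, and at 3.57 and 5.79, higher in LnCaP-abl (0.80) and LAPC4-CR (0.57) and lower in VCaP-CR (-0.67). SLBP, which binds the stem-loop of histone mRNAs, was at 40.3 and 52.2, at 44.6 and 31.7, and at 44 and 46.2. CCNE2, POLE and SLBP had the highest changes in the LnCaP pair (SLBP 0.37).

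**Figure D3:**
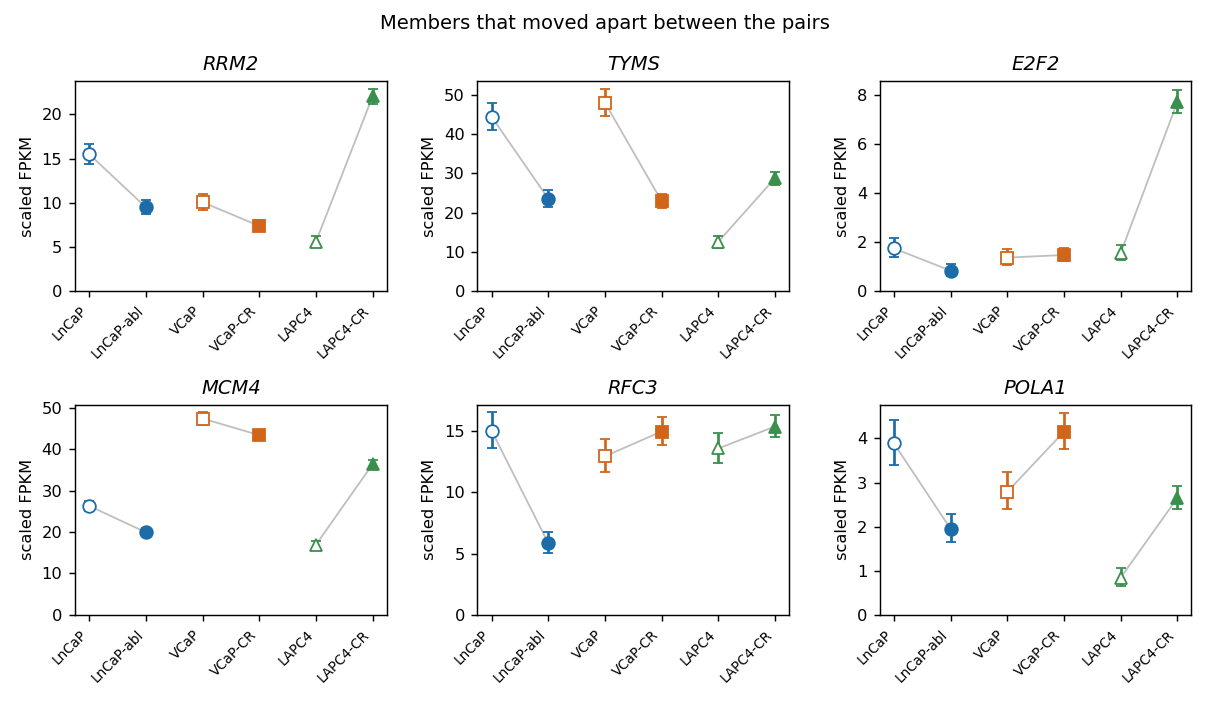
Scaled FPKM in the 6 libraries of RRM2, TYMS, E2F2, MCM4, RFC3 and POLA1; open symbols are sensitive and filled symbols resistant lines, bars are exact 95% Poisson intervals of the count and lines join a pair. RRM2, TYMS, E2F2 and MCM4 are higher in LAPC4-CR than in LAPC4, and RFC3 is low in LnCaP-abl only.

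Whether a member's change in 1 pair differed from the mean change of the other 2 was tested with an edgeR interaction term, a comparison added after the data had been seen. No member passed in any pair, beside 0.203% of all genes for the LnCaP pair, 0.0123% for the VCaP pair and 0% for the LAPC4 pair. At an unadjusted p under 0.05 there were 4 members for LnCaP (9.26% of all genes), 0 for VCaP (2.54%) and 6 for LAPC4 (6.31%). For LAPC4 these were MCM4, MCM10, RRM2, TYMS, E2F2 and DTL, and for LnCaP they were RFC3, POLA1, CCNE1 and E2F2. The log2 difference of the LAPC4 pair from the others was 2.56 for RRM2 (SE 0.56, edgeR adjusted p 0.245) and 2.19 for TYMS (SE 0.55, edgeR adjusted p 0.332). For E2F2 it was 2.78 (SE 0.78, edgeR adjusted p 0.444). In the LnCaP pair the difference was -1.57 for RFC3 (SE 0.51, edgeR adjusted p 0.387) and -2.11 for POLA1 (SE 0.69, edgeR adjusted p 0.390). This fit rests on little replication, since within a gene only the 2 pairs set against the third inform the spread. The quasi-likelihood fit then draws that estimate towards a trend over all genes.

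By role, the licensing genes (MCM2 to MCM7, CDC6 and CDT1) had median changes of -0.15, -0.25 and 0.63 (LnCaP, VCaP and LAPC4 pair in that order, here and for the other roles). In LAPC4-CR 6 of these 8 were higher, among them CDC6, the loader of the ring, at 48.0 scaled FPKM against 24.3 in LAPC4, and MCM6, at 37.9 against 18.5. MCM2 and CDT1 were lower. By sign alone, the helicase activation genes (MCM10 and GINS1 to GINS4) went the same way within a pair. All 5 were lower in LnCaP-abl and in VCaP-CR, and all 5 were higher in LAPC4-CR. Most of these differences lay within counting error. Intervals apart from those of the parent were seen for 3 of the 5 genes in LnCaP-abl, 2 in VCaP-CR and 2 in LAPC4-CR. GINS1 and GINS3 rose by only 0.01 and 0.07 in LAPC4-CR. The medians of the 5 genes were -0.35, -0.26 and 0.25.

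The clamp and clamp loader genes had medians of -0.46, -0.44 and 0.30, and all 5 were lower in LnCaP-abl. PCNA had the highest level of all members in every line, with 129 and 93.7 scaled FPKM for the LnCaP lines, parent first, 249 and 143 for the VCaP lines, and 117 and 155 for the LAPC4 lines. VCaP stood above the other 5 lines, and LnCaP-abl was lowest. The polymerases, primase and RPA2 had medians of -0.33, -0.15 and 0.13 and were the most mixed, with 7 of 9 lower in LnCaP-abl, 5 of 9 in VCaP-CR and 3 of 9 in LAPC4-CR. PRIM2, the large primase subunit, had the smallest spread of any member, 1.41-fold from lowest to highest line. Its entry is classed as a processed transcript and has a near copy in the genome, so its count is uncertain.

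The nucleotide supply genes RRM1, RRM2, TYMS and TK1 had medians of -0.60, -0.60 and 0.84. All 4 were lower in the LnCaP and VCaP resistant lines, and all but TK1 were higher in LAPC4-CR. The lagging strand genes FEN1, a flap nuclease, and LIG1, the ligase that joins fragments, were both lower in VCaP-CR and both higher in LAPC4-CR. For FEN1 the change in the VCaP pair was only -0.03, and its counting intervals there overlapped. LIG1 was at 9.19 and 4.94 scaled FPKM in the VCaP pair, a change of -0.78. The chromatin genes UHRF1, CHAF1A, CHAF1B and SLBP had medians of 0.09, -0.21 and 0.38, with 3 of 4 higher in LnCaP-abl. The G1/S regulators had medians of -0.50, -0.26 and 0.57, with CCNE2 the only one higher in LnCaP-abl. CDC25A, the phosphatase that activates CDK2, was at 8.13 in LnCaP and 6.67 in LnCaP-abl and at 6.60 and 8.13 in the LAPC4 pair.

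The second question was which members differ between the LnCaP, VCaP and LAPC4 lineages in both states. The edgeR test between lineages called 2 of 44 members, POLA2 and CCNE1, beside 12.7% of all tested genes. POLA2, the regulatory subunit of polymerase alpha, stood at 17.9 and 18.8 scaled FPKM for VCaP and its resistant partner, 7.37 and 7.13 for the LnCaP lines, and 6.13 and 5.43 for the LAPC4 lines (edgeR adjusted p 0.0226). Both VCaP lines were above all others, and within each pair the change was at most 0.15 in size. CCNE1, which encodes the cyclin that activates CDK2 at the G1/S transition, was at 4.05 and 2.11 in the LnCaP pair, at 0.511 and 0.623 in the VCaP pair, and at 3.72 and 8.90 in the LAPC4 pair (edgeR adjusted p 0.0399). Both VCaP lines were below all others, on 10 counts in VCaP (95% Poisson interval 4.8 to 18.4) and 20 in VCaP-CR (12.2 to 30.9). CCNE1 had the widest range of any member, 17.4-fold from VCaP to LAPC4-CR. Without the VCaP pair neither gene passed (edgeR adjusted p 0.808 for POLA2 and 0.527 for CCNE1), and CCNE1 missed the threshold in limma (adjusted p 0.0568) and among protein-coding genes alone (edgeR adjusted p 0.0636).

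The next 3 members by p were GINS4, CDT1 and MCM5. GINS4, a GINS subunit, was at 4.18 and 3.83 scaled FPKM in the LnCaP pair, at 1.42 and 1.15 in the VCaP pair, and at 3.62 and 7.83 in the LAPC4 pair, again lowest in both VCaP lines (edgeR adjusted p 0.0588). GINS4 passed in DESeq2 (adjusted p 0.00344), without the LnCaP pair (edgeR adjusted p 0.0138) and without the LAPC4 pair (edgeR adjusted p 0.0303), but not without the VCaP pair (edgeR adjusted p 0.785), in limma (adjusted p 0.0750) or among protein-coding genes alone (edgeR adjusted p 0.0772). CDT1, which loads the ring with CDC6, was at 8.60 and 7.84, at 3.78 and 3.26, and at 5.27 and 4.84 (edgeR adjusted p 0.105). It was highest in both LnCaP lines and lowest in both VCaP lines, and within each pair it changed by at most 0.17 in size. MCM5 was at 12.6 and 12.0, at 11.8 and 9.10, and at 4.98 and 7.06, lowest in both LAPC4 lines (edgeR adjusted p 0.147).

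**Figure D4:**
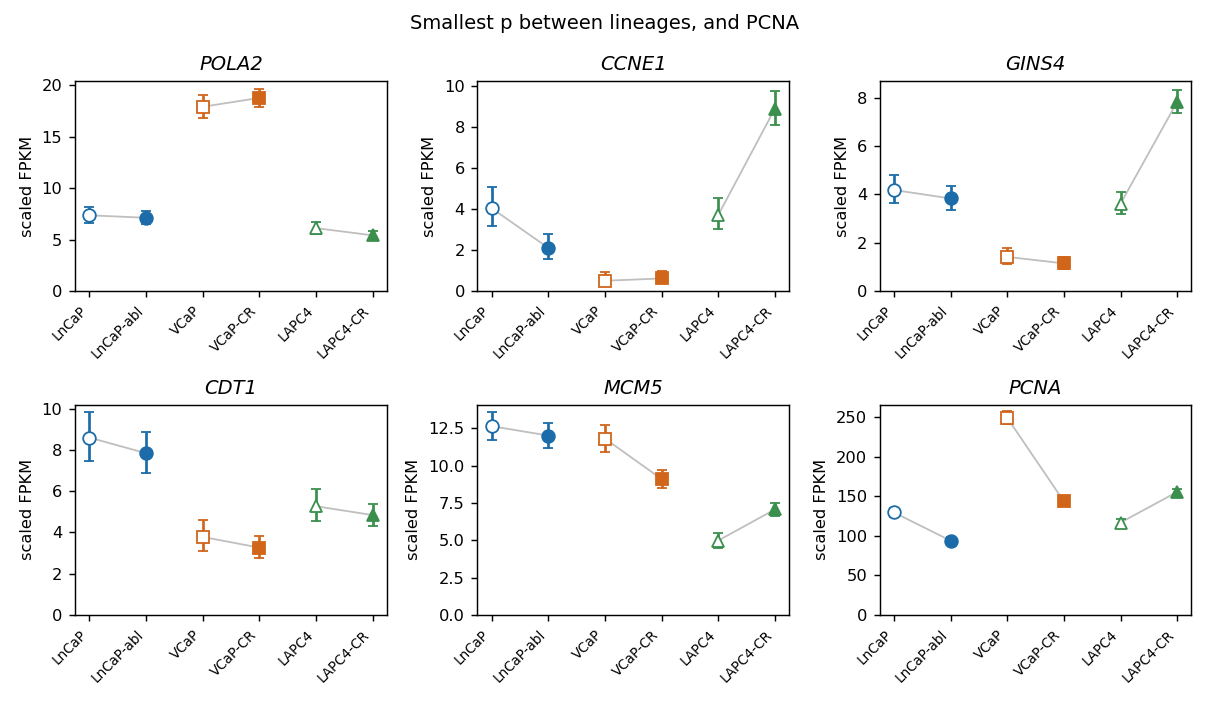
Scaled FPKM in the 6 libraries of the 5 members with the smallest p between lineages (POLA2, CCNE1, GINS4, CDT1 and MCM5) and of PCNA, the member with the highest level; open symbols are sensitive and filled symbols resistant lines, bars are exact 95% Poisson intervals of the count and lines join a pair. POLA2 is high and CCNE1 and GINS4 are low in both VCaP lines.

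In level, the median of the 44 members was 11.2 and 8.71 scaled FPKM for the LnCaP lines, parent first, 12.0 and 9.15 for the VCaP lines, and 8.81 and 11.6 for the LAPC4 lines. The members took 0.293% and 0.237% of all counts in the LnCaP pair, 0.286% and 0.234% in the VCaP pair, and 0.244% and 0.356% in the LAPC4 pair. Of the counts outside small RNA classes they took 0.376% and 0.278%, 0.392% and 0.298%, and 0.319% and 0.409%. LAPC4-CR gave the members the largest share on both counts, and the smallest was in VCaP-CR of all counts and in LnCaP-abl outside small RNA classes. E2F2 had the lowest mean level. Subunits of 1 complex were not at 1 level even per length. MCM5 was the lowest of MCM2 to MCM7 in every line, and the highest of the 6 was 2.36-fold above it in LnCaP-abl and 8.80-fold above it in LAPC4-CR. GINS1 was the highest of the GINS genes in every line, 14.6-fold above GINS4 in VCaP. The lengths behind these values are those of the deposited entries, and 13 members overlap another protein-coding entry.

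The other genes of replication and of the cell cycle were taken from lists set by function. Of 32 other replication genes, all tested, 25 were lower in LnCaP-abl, 16 in VCaP-CR and 7 in LAPC4-CR, with median changes of -0.48, -0.01 and 0.52. In the VCaP pair this list did not share the lower median of the members (-0.26). There 16 of its genes were higher, and its median was that of all tested genes (-0.01). The edgeR test called 0 of them across the pairs (0% of all tested genes) and 0 between lineages (12.7% of all tested genes). The lowest changes in the LnCaP pair were those of POLE3 (-1.12), a small subunit of polymerase epsilon, and DUT (-1.05), which removes dUTP, and the highest those of ORC3 (0.98), a subunit of the origin recognition complex, and RECQL4 (0.92). RECQL4 (-0.93) and CDC45 (-0.63), a partner of GINS in the helicase, were lowest in the VCaP pair, where TIMELESS (0.61) and ORC2 (0.43) were highest. In the LAPC4 pair the replication fork proteins TIMELESS (1.92) and CLSPN (1.47) were highest, and POLE4 (-0.76) and ORC4 (-0.29) lowest. TIMELESS was at 2.72 scaled FPKM in LAPC4 and 13.1 in LAPC4-CR.

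Of 28 genes of G1/S control, 26 were tested (CCND2 and CDKN2B were too low), and the medians were -0.28, -0.05 and 0.15. The edgeR test called 0 across the pairs and 5 of the 26 between lineages (CDK6, CDKN1A, CDKN2A, E2F3 and CKS1B), beside 12.7% of all tested genes. RB1, whose protein holds E2F in check, was higher in all 3 pairs, by 0.58, 0.87 and 0.44, at 4.81 and 7.67, 5.03 and 10.0, and 6.69 and 9.41 scaled FPKM (edgeR adjusted p 0.593). MYC, a transcription factor that drives growth, was lower in all 3, by -0.96, -0.31 and -1.37 (edgeR adjusted p 0.593). In the LnCaP pair SKP2 (-1.30), which targets the inhibitor CDKN1B for destruction, and CCNA2 (-1.07), cyclin A2, were lowest, and RBL2 (1.24) and TFDP1 (0.90) highest. CDKN1A, the inhibitor p21, and CDKN2D were lowest in the VCaP pair (-0.94 and -0.74), where RB1 and SKP2 (0.68) were highest. CDKN1C (-1.78) and MYC were lowest in the LAPC4 pair, and E2F8 (0.88) and RBL1 (0.69) highest. CDKN2A, which encodes the inhibitor p16, was at most 4.43 scaled FPKM over its whole gene entry, in LnCaP. CDK6, a partner of cyclin D, was highest in LAPC4 and LAPC4-CR, at 4.31 and 5.77.

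Of 22 genes of G2 and mitosis, all tested, 19 were lower in LnCaP-abl, 17 in VCaP-CR and 6 in LAPC4-CR, with medians of -0.40, -0.25 and 0.16. The edgeR test called 0 across the pairs and 3 of the 22 between lineages (TOP2A, KIF11 and TTK), beside the same 12.7% of all genes. MKI67, which encodes the proliferation antigen Ki-67, was at 9.96 and 4.71 scaled FPKM in the LnCaP pair, at 8.55 and 13.6 in the VCaP pair, and at 4.01 and 23.2 in the LAPC4 pair. In the VCaP pair MKI67 (0.61) and CENPF (0.73), a kinetochore protein, were thus higher while most of the 44 replication members were lower. They had the highest changes in the LAPC4 pair too, 2.27 for MKI67 and 2.20 for CENPF. With the trend on gene length removed, the changes in the VCaP pair were 0.38 for MKI67 and 0.52 for CENPF. KIF20A (-0.70) and AURKB (-0.65) were lowest in the VCaP pair. CDK1, the mitotic kinase, was lower in all 3 pairs, by -0.90, -0.23 and -0.36 (LnCaP, VCaP and LAPC4 pair). CCNB2, a cyclin B, was too, by -0.55, -0.27 and -0.37. In LAPC4-CR both thus went against the median of the list. Of the 22 genes, 6 (27.3%) were lower in all 3 pairs and 0 higher in all 3, against 16.7% and 15.1% of all tested genes. BUB1 (0.32) and CDC20 (0.21) were highest in the LnCaP pair.

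**Figure D5:**
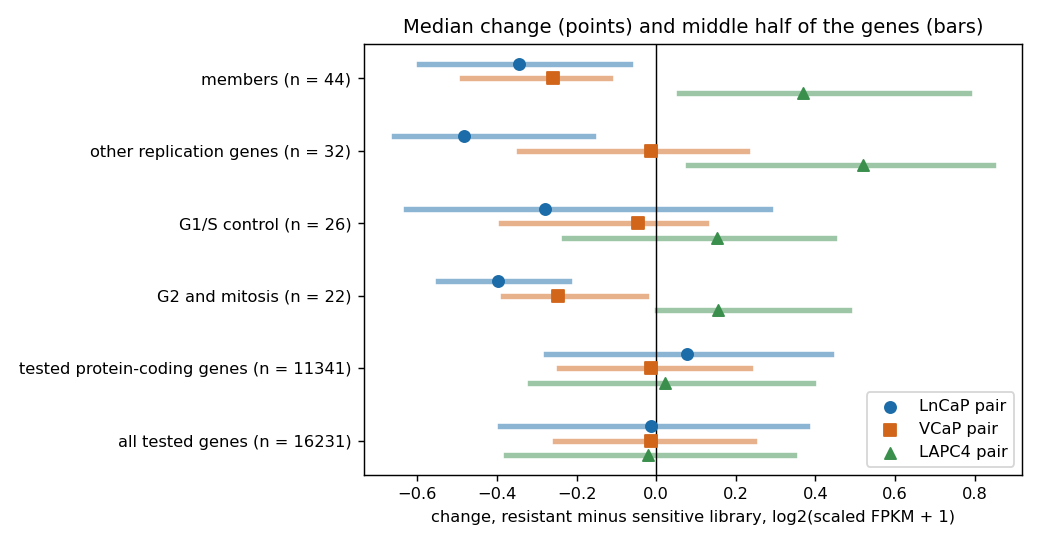
Median change (points) and the range of the middle 50% of genes (bars) in each pair, in log2(scaled FPKM + 1), for the 44 members, the 3 companion lists, tested protein-coding genes and all tested genes. The LAPC4 median lies to the right of 0 and the LnCaP median to the left for the members and each companion list, while the medians over all genes lie near 0.

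Total counts ran from 8661337 to 22433655, with more counts for the resistant than for the sensitive line of every pair. Small RNA classes took 22.1% of counts in LnCaP and 14.9% in LnCaP-abl, 27.0% and 21.5% in the VCaP pair, and 23.4% and 13.0% in the LAPC4 pair, and keeping these classes in the tests changed no call of a member. Luminal prostate markers (6 of 6 present) summed to 331 to 575 scaled FPKM in the sensitive and 263 to 854 in the resistant lines. Basal epithelial markers summed to 3.20 to 8.30 in the sensitive and 4.26 to 16.9 in the resistant lines, with the highest sum in LAPC4-CR. Most of that sum was ITGB4, at 14.7 against 7.33 in LAPC4, and KRT14 was at 1.66 against 0.34. KRT5 (0.347 against 0.415) and TP63 (0.216 against 0.218) were not higher in LAPC4-CR. The part of these markers in the LAPC4 results was not tested. Leukocyte markers summed to at most 3.05 and endothelial markers to at most 1.70. Fibroblast markers summed to 1.89 to 5.28 in the sensitive and 1.96 to 51.6 in the resistant lines, of which LUM gave 50.2 in VCaP-CR, and its part in the VCaP results was not tested. HOXB13, a luminal marker, was at 31.3 in LAPC4 and only 1.60 in LAPC4-CR. ERG, which is fused in VCaP, had 16.9 there, 5.46 for VCaP-CR and at most 0.19 elsewhere. Across the 44 members the change went with gene length (Spearman's rho 0.29, 0.40 and 0.27 in the same order of pairs, across genes, beside 0.12, 0.25 and 0.20 over protein-coding genes). With the length trend removed the members' medians were -0.42, -0.22 and 0.35.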

How the data were processed

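RNA of 6 lines was measured in 1 library each, made from total RNA with the SOLiD Total RNA-Seq kit, per the labels' protocols. The submitters' processing notes name HTSeq and hg18. For the aligner, annotation release and strand, the sources used here say nothing. The deposited counts are whole reads per Ensembl gene (51698 entries), per the file headers. The deposited FPKM values, per the file headers, were rebuilt within 1% from count, gene length and total for 100% of entries. Gene length, deposited in 5 of the 6 tables, was used for all. Starts in the tables count from 0, so 1 was added.

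From these, 8763 entries of small RNA classes were left out, entries sharing a symbol were summed (48 of 42887 symbols), and FPKM was divided by the median ratio over the 11600 genes that reached 1 FPKM in every library. A mean of 1 scaled FPKM or more was asked for testing (16231, of which 11341 protein-coding). States were compared on counts with edgeR 4.0.16 (R 4.3.3, TMM, quasi-likelihood, parental line as block), Benjamini-Hochberg over all tested genes, threshold 5%, and lineages in the same model. DESeq2 1.42.0, limma 3.58.1, other filters, factors and pseudocounts, and leaving out each pair were alternatives. Only the edgeR tests were tried on simulated counts. The line names pair the libraries. Deviations from group means correlated at 0.46 to 0.73 within a line, across genes, and at -0.48 to -0.06 between lines, values that are negative in part by construction. No source says that libraries came from separate cultures, so p-values measure only the spread between these libraries.

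Members and lists were chosen with earlier results of these data known. Values in all libraries are given for the 3 highest and 3 lowest changes per pair, the 5 smallest p per test, members past 2-fold in opposite directions, and the highest and lowest level; MCM2, MCM4 and single values of other members were added after their values were seen. From companion lists the 2 highest and 2 lowest changes per pair are named, and MKI67, RB1, CDKN1A, CDKN2A and CDK6. Promoter windows came from the RefSeq table, with exons of GENCODE release 29 cut from the printed stretches.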

Additional observations from a re-analysis of the deposited data

Results flagged for a closer look

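TYMS is listed here because its 2-fold changes had opposite signs in 2 pairs, though the VCaP change was inside 2-fold at some other settings. The change of TYMS in the VCaP pair minus that in the LAPC4 pair was -2.17 in log2(scaled FPKM + 1). This difference between those 2 pairs was not itself tested; the edgeR comparison of the LAPC4 pair with the mean of the others gave an adjusted p of 0.332. The median change of the 44 members also had opposite signs, with the LnCaP pair minus the LAPC4 pair at -0.71 and the VCaP pair minus the LAPC4 pair at -0.63. Each pair is 1 library against 1, and these differences of medians were not tested.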

How the results depend on the processing

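The members' median change kept its sign in all 27 alternative values, from -0.44 to -0.25 in the LnCaP pair, -0.37 to -0.19 in the VCaP pair and 0.25 to 0.46 in the LAPC4 pair. Of 108 member counts 97 stayed within 1.5 times the reported one, some with smaller shifts (LAPC4 2-fold higher 4 to 8 instead of 6), and the 11 beyond that were these. In the LnCaP pair 0 members were 2-fold lower at a pseudocount of 5 and 6 with none (3 as reported), and 5 were higher with factors from protein-coding genes (9). In the VCaP pair 0 were 2-fold lower at a pseudocount of 5, with FPKM as deposited and with the length trend removed (1), and 3 were higher with the filter at 5 scaled FPKM, which left 35 members (8). In the LAPC4 pair 10, 10, 1 and 11 were 2-fold higher with no pseudocount, at pseudocounts of 0.25 and 5 and with FPKM as deposited (6). Of 498 single member changes 477 stayed within the range of their counting intervals. Without the replicate block, edgeR called 0 genes higher, 0 lower and 0 members across the pairs, as with it.

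Across the pairs, the calls higher and lower were 83 and 55 in DESeq2 and 95 and 58 in edgeR with no filter, and leaving out each pair in turn gave 0 to 13 higher and 1 to 20 lower. Between lineages the 2065 genes became 3973 in DESeq2, 4900 without a filter, 1294 among protein-coding genes and 673 to 3573 with 1 pair left out. The 2 members became 3 in DESeq2, with no filter and with no state term, 1 in limma, 1 among protein-coding genes, and 0 to 3 with 1 pair left out, 0 without the VCaP pair. For the difference of 1 pair from the others, DESeq2 called 206 genes for LnCaP, 39 for VCaP and 114 for LAPC4 (33, 2 and 0 in edgeR), and limma 0 for LnCaP and 1 for VCaP. That comparison, the length trend, the plain ratio and keeping small RNA classes were chosen after seeing the data, and the comparison could not be fitted with a pair left out. The cause of these shifts was not tested, except that leaving out a pair leaves 2. Depth limits the lowest members most, down to 10 counts for CCNE1 in VCaP.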

Other observations

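Across the 44 members, which are not independent replicates, log2(scaled FPKM + 1) correlated between the libraries of a pair at Pearson's r 0.978 for VCaP, 0.944 for LnCaP and 0.910 for LAPC4. For LAPC4 with LnCaP, a library of another line, r was 0.921 (Spearman's rho 0.910, against 0.891 for LAPC4 with LAPC4-CR), and the lowest value of all 15 library pairs was 0.844, for VCaP with LAPC4-CR. These values share gene length and annotation in all libraries.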
